A study of Mus musculus with 10 samples.

Results

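The 10 genes described here, Syt6, Foxp2, Tle4, Tbr1, Ccn2, Nxph4, Cplx3, Fezf2, Bcl11b and Etv1, are markers of deep-layer cortical neurons. They were taken by symbol from the deposited table of mouse prefrontal cortex expression, and all 10 were present in it and were expressed highly enough to be tested among 14406 genes. The animals were wild-type mice of the C57BL/6J strain, and RNA of their prefrontal cortex was sequenced in 5 libraries of hypoxia + PBM and 5 of hypoxia. All mice had been kept in hypobaric hypoxia, a low-pressure, low-oxygen exposure that models high altitude. Hypoxia + PBM mice then received photobiomodulation (PBM), a treatment with red or near-infrared light, and hypoxia mice did not. The sources used here do not state the age of the mice or whether each library came from a separate animal, so p-values measure the spread between these libraries. Normal-pressure mice were not analysed here, so every difference below is one between treated and untreated hypoxic cortex.

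The deep layers of the cortex are its output layers. Layer 5 extratelencephalic neurons project to the spinal cord, brainstem and other subcortical targets, layer 6 corticothalamic neurons project to the thalamus, and layer 6b, the remnant of the embryonic subplate, lies next to the white matter. Their identities are set during development by transcription factors that repress one another's programmes: Fezf2 and Bcl11b direct the subcerebral fate, and Tbr1 directs the corticothalamic fate and represses Fezf2. Several of these genes are not confined to the cortex, and Bcl11b and Foxp2 are also well known in the medium spiny neurons of the striatum.

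Of the 10 deep-layer markers, Syt6 was lower in hypoxia + PBM and was the 1 marker whose change passed the test, at 67.0% of the hypoxia mean. Nxph4, Foxp2 and Bcl11b had log2 changes near -0.3 and Etv1 one of 0.17, but none of these passed, and Tbr1, Cplx3 and Fezf2 had intervals that spanned 0. The test was limma with an intensity trend on log2(FPKM + 1), in which FPKM is a fragment count scaled to gene length and to sequencing depth, and a gene was called when its Benjamini-Hochberg adjusted p over all tested genes was under 0.05. By this rule 1.7% of all tested genes were called lower and 1.15% higher, so 1 of 10 markers lower and 0 of 10 higher is a small count to read against the background. Among the 10 markers 6 were lower and 1 was higher at an unadjusted p under 0.05, where 10.1% and 9.46% of all tested genes were. The markers were chosen with earlier results of these data known, so such counts, here and below, are a description. The median log2 change was -0.16 over the 10 markers, against 0.00011 over all tested genes.

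Sequencing depth was 29283937 to 35957148 gene-assigned reads per library. Excitatory neuron genes were abundant in both groups: Slc17a7, the vesicular glutamate transporter of cortical excitatory neurons, averaged 507 ± 14.4 FPKM in hypoxia + PBM and 493 ± 21.6 FPKM in hypoxia (SD, n = 5 each). Markers of striatal medium spiny neurons were also present and differed between the groups. All 15 of 15 such markers were called lower in hypoxia + PBM, with a median log2 change of -0.95 and none at 0 in any library. Their summed level ran from 156 to 297 FPKM in hypoxia + PBM and from 335 to 627 FPKM in hypoxia. The mean of the 15 markers on the log2(FPKM + 1) scale was 2.69, 2.73, 2.15, 2.89 and 2.97 in hypoxia + PBM replicates 1 to 5, and 3.71, 3.45, 3.84, 3.08 and 3.89 in hypoxia replicates 1 to 5. The difference of the group means was -0.91 and the groups did not overlap, which is given as a description because the list was chosen with earlier results of these data known. In bulk tissue, fewer cells of a type and less RNA per cell cannot be told apart, which applies to every marker below.

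The promoter of Syt6 is shown because Syt6 was the called marker, and that of Etv1 because Etv1 had the largest positive value. Both are the 250 bases before the first listed transcription start on the plus strand, from RefSeq on GRCm38.p6, at chr3:103574995-103575244 for Syt6 and chr12:38779832-38780081 for Etv1. Capitals mark the E-box CACGTG in Syt6, a sequence bound by basic helix-loop-helix factors, and GGAATG in Etv1, the core bound by TEAD factors.
Syt6: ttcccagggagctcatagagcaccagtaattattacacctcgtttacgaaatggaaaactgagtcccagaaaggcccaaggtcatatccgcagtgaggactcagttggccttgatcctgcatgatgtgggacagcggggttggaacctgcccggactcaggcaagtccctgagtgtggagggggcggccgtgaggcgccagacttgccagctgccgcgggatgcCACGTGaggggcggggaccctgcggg
Etv1: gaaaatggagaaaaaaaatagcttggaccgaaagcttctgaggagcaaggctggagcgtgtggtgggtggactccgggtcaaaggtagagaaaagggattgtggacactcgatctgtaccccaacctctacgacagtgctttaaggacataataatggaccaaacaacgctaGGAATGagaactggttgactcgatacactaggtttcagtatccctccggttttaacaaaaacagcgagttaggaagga
Both strands were searched, and the E-box began 26 bases before the Syt6 start and the TEAD core 78 bases before the Etv1 start. An E-box was present in 6.02% and a TEAD core in 12.6% of all 32851 such windows. The first listed windows of the uncalled markers Tle4 and Cplx3 held an E-box too, and the window of Syt6 start 3 held none. The motifs were chosen in part after the letters had been seen, and the matches describe these windows alone.

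Levels of the 10 markers covered a wide range. On the FPKM scale, which is per length and so allows genes to be compared, the order of mean levels in hypoxia was Tbr1, Ccn2, Tle4, Cplx3, Etv1, Bcl11b, Fezf2, Syt6, Nxph4 and Foxp2. Hypoxia + PBM had the same order, except that Fezf2, at 5.74 FPKM, was above Bcl11b, at 5.27 FPKM. Neighbours whose ranges overlapped in both groups were Cplx3 and Etv1, Bcl11b and Fezf2, and Nxph4 and Foxp2, so ranges did not resolve their order. Within libraries, Nxph4 was above Foxp2 in every library but hypoxia replicate 1, at 2.53 against 2.57 FPKM. Read counts behind the values ran from 105 for Nxph4 to 6334 for Tbr1.

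**Figure D1:**
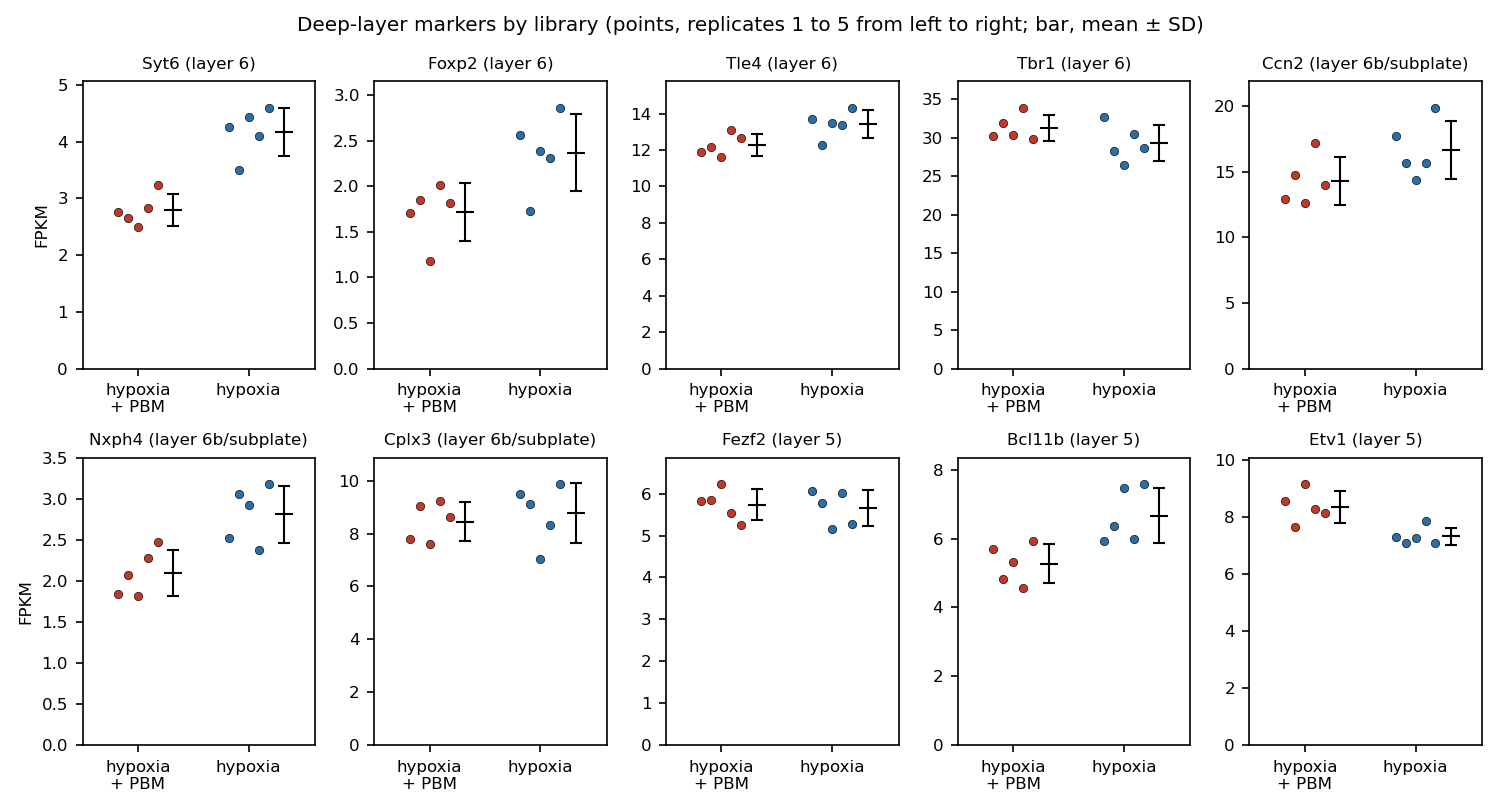
FPKM of each of the 10 deep-layer markers in every library, with hypoxia + PBM left of hypoxia, 1 point per library with replicates 1 to 5 from left to right, and bars for the mean and SD (n = 5 each). The groups do not overlap for Syt6 and, by a very small margin, for Bcl11b, and they overlap for the other 8 genes.

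Syt6 encodes synaptotagmin 6, a vesicle-trafficking protein whose gene is used to mark layer 6 corticothalamic neurons. Its level was 2.76, 2.66, 2.50, 2.82 and 3.24 FPKM in hypoxia + PBM replicates 1 to 5, and 4.26, 3.50, 4.43, 4.09 and 4.60 FPKM in hypoxia replicates 1 to 5. Every hypoxia + PBM library was below every hypoxia library. The means were 2.80 ± 0.278 FPKM in hypoxia + PBM and 4.18 ± 0.425 FPKM in hypoxia (SD, n = 5 each). The log2 change was -0.45 ± 0.068 (SE), with a 95% interval of -0.59 to -0.30 and an adjusted p of 0.00669 by limma, which placed Syt6 at rank 38 of all tested genes by p. Syt6 was called in 10 of 10 fits that left out 1 library, with log2 changes of -0.50 to -0.42.

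Deviations of Syt6 from its group means had a Pearson's r of 0.68 with those of the striatal marker mean over the 10 libraries. Some libraries stood in the same place for both, and others did not. Hypoxia + PBM replicate 3 was the lowest of its group in both. Hypoxia + PBM replicate 5 and hypoxia replicate 5 were the highest of their groups in both. The lowest hypoxia library was replicate 2 for Syt6, at 3.50 FPKM, but replicate 4 for the striatal mean, at 3.08. Syt6 was at 4.09 FPKM in that replicate 4. A fit without hypoxia + PBM replicate 3 and hypoxia replicate 5 was chosen after seeing the data. In it the log2 change of Syt6 was -0.39 ± 0.072 with an adjusted p of 0.0502. Since the libraries left out are the extreme ones for Syt6 itself, the change without them had to be smaller. When the striatal marker mean entered the fit as a covariate it was -0.23 ± 0.11 with an adjusted p of 0.811, in a fit where the covariate itself did not overlap between the groups and where 0 of the 14406 genes were called. Syt6 overlaps Atg4a-ps, which GENCODE annotates as protein-coding on the opposite strand, and since the sources used here do not state the strand setting of the counting, reads from that gene cannot be told apart from those of Syt6.

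Other members of the synaptotagmin subfamily that Syt6 belongs to were not called. Syt3 had a log2 change of -0.08 (adjusted p = 0.331), Syt9 of 0.06 (adjusted p = 0.696) and Syt10 of -0.02 (adjusted p = 0.878). Whether the change of Syt6 differed from theirs was not tested.

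Foxp2 encodes a forkhead transcription factor known for its role in speech and vocal learning. Its level was 1.71, 1.85, 1.18, 2.01 and 1.82 FPKM in hypoxia + PBM and 2.57, 1.73, 2.38, 2.31 and 2.86 FPKM in hypoxia, in replicates 1 to 5. Hypoxia + PBM replicate 3 was the lowest of its group, and hypoxia replicate 2 fell inside the hypoxia + PBM range. Its log2 change of -0.31 ± 0.099 had a 95% interval of -0.52 to -0.098 and an adjusted p of 0.108, so Foxp2 was not called. Leaving out hypoxia replicate 2 gave an adjusted p of 0.0492, and Foxp2 was not called in the other 9 fits without 1 library. Since that replicate 2 is the lowest hypoxia library of Foxp2, the change without it had to be larger.

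Tle4, a Groucho-family corepressor that transcription factors recruit in layer 6 corticothalamic neurons, was measured at 11.9, 12.2, 11.6, 13.1 and 12.7 FPKM in hypoxia + PBM and at 13.7, 12.2, 13.5, 13.4 and 14.3 FPKM in hypoxia. Hypoxia replicate 2 lay within the hypoxia + PBM range and the groups overlapped. The log2 change was -0.12 ± 0.046 with an adjusted p of 0.175.

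Tbr1, the T-box transcription factor that specifies layer 6 identity and the most abundant of the 10 markers, had 30.2, 31.9, 30.3, 33.9 and 29.8 FPKM in hypoxia + PBM. In hypoxia Tbr1 had 32.7, 28.3, 26.5, 30.5 and 28.7 FPKM. The groups overlapped widely, and the log2 change was 0.089 ± 0.053, with a 95% interval of -0.026 to 0.20 and an adjusted p of 0.387. Of the 4 layer 6 corticothalamic markers, then, 1 was lower, 0 were higher and 3 did not pass, with a median log2 change of -0.22.

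**Figure D2:**
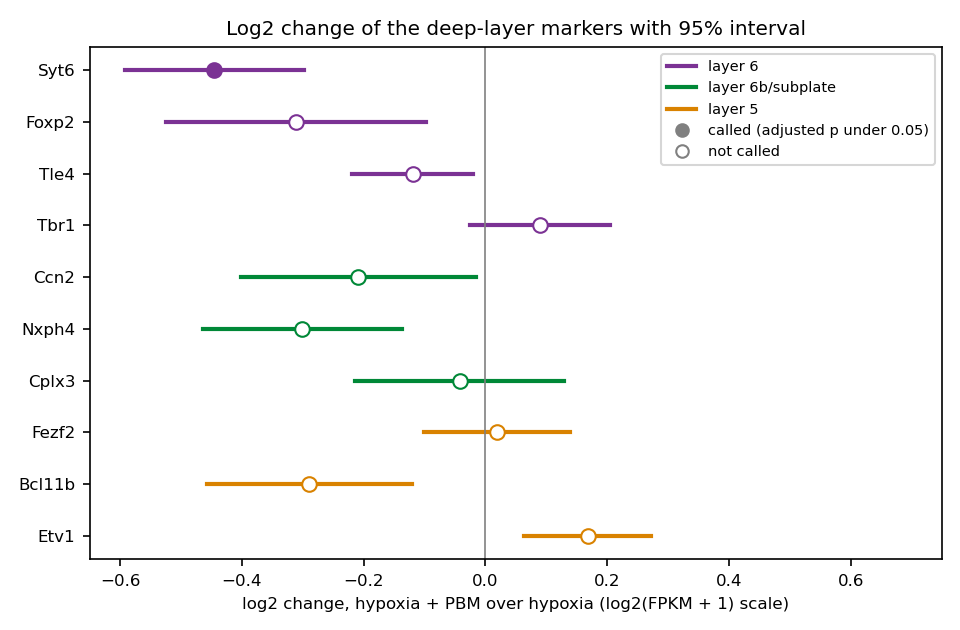
Log2 change on the log2(FPKM + 1) scale, hypoxia + PBM over hypoxia, of each of the 10 markers, coloured by layer, with its 95% interval as a bar. Syt6, at -0.45, is the 1 filled point (called), 7 points lie below 0 and 3 lie above it.

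Ccn2, also known as connective tissue growth factor, is a secreted matrix-associated protein and the classical marker of layer 6b, and vascular cells express it too. It had 12.9, 14.7, 12.6, 17.2 and 14.0 FPKM in hypoxia + PBM and 17.7, 15.7, 14.3, 15.7 and 19.9 FPKM in hypoxia. The groups overlapped, with hypoxia + PBM replicate 4 above 3 of the 5 hypoxia libraries, and the log2 change was -0.21 ± 0.089 with an adjusted p of 0.216. Endothelial markers had a median log2 change of 0.20, with 3 of 7 called higher and 0 lower. Without 1 library Cldn5 was called in 10 of 10 fits, Ly6c1 in 6 and Tek in 3. The median over pericyte and smooth muscle markers was 0.14, with 0 of 6 called by limma, 1 called higher by limma-voom and 2 higher at an unadjusted p under 0.05. Other targets of the YAP and TEAD pathway that drives Ccn2 had a median of 0.13, with 0 of 5 called and 2 higher unadjusted, and Ccn1, the closest relative of Ccn2 among them, had a log2 change of 0.28 with an adjusted p of 0.175.

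Nxph4 encodes a neurexophilin, a small secreted glycoprotein of a family whose members bind neurexins at synapses. It had 1.84, 2.07, 1.81, 2.28 and 2.47 FPKM in hypoxia + PBM and 2.53, 3.06, 2.92, 2.37 and 3.18 FPKM in hypoxia. Only hypoxia + PBM replicate 5 and hypoxia replicate 4 crossed over, and the means were 2.09 ± 0.281 FPKM in hypoxia + PBM and 2.81 ± 0.347 FPKM in hypoxia (SD, n = 5 each). Nxph4 had a log2 change of -0.30 ± 0.076 with an adjusted p of 0.0526, which missed the threshold narrowly.

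Nxph4 rested on few reads, 105 to 182 per library. Counting error alone gives a coefficient of variation of 9.11% in hypoxia + PBM and 8.14% in hypoxia, against 13.4% and 12.4% observed in those groups. Leaving out either of the crossing libraries gave a call. The adjusted p was 0.0353 without hypoxia + PBM replicate 5 and 0.0269 without hypoxia replicate 4, and the other 8 fits without 1 library gave none. Since those are the highest hypoxia + PBM library and the lowest hypoxia library of Nxph4, its change without either had to be larger. Its paralogue Nxph3, which is known from layer 6b neurons, was called lower. Nxph3 averaged 9.53 ± 0.92 FPKM in hypoxia + PBM and 11.3 ± 0.379 FPKM in hypoxia (SD, n = 5 each), a log2 change of -0.23 ± 0.056 with an adjusted p of 0.0442. That call held in 1 of 10 fits that left out 1 library.

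Cplx3, a complexin that binds the SNARE complex and is a layer 6b marker in cortex, had 7.78, 9.05, 7.61, 9.23 and 8.62 FPKM in hypoxia + PBM and 9.50, 9.12, 7.02, 8.34 and 9.87 FPKM in hypoxia. The lowest library of all was hypoxia replicate 3 and the highest hypoxia replicate 5, so the hypoxia + PBM range lay inside the hypoxia range. The log2 change was -0.042 ± 0.080 with an adjusted p of 0.816. None of the 3 layer 6b markers was called by limma or limma-voom, 2 were lower at an unadjusted p under 0.05, and their median log2 change was -0.21.

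Fezf2, the zinc-finger transcription factor that directs layer 5 subcerebral fate, had 5.83, 5.85, 6.23, 5.53 and 5.25 FPKM in hypoxia + PBM and 6.07, 5.77, 5.15, 6.02 and 5.26 FPKM in hypoxia. The ranges nearly coincided, and the log2 change was 0.019 ± 0.056 with an adjusted p of 0.887.

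Bcl11b, or Ctip2, acts downstream of Fezf2 in layer 5 extratelencephalic neurons and is also expressed by striatal medium spiny neurons. Its level was 5.69, 4.82, 5.33, 4.57 and 5.93 FPKM in hypoxia + PBM, and 5.93, 6.36, 7.46, 6.00 and 7.58 FPKM in hypoxia. All hypoxia libraries lay above all hypoxia + PBM libraries, but hypoxia + PBM replicate 5 and hypoxia replicate 1 met at 5.93 FPKM and were apart only in the next decimal. The means were 5.27 ± 0.571 FPKM in hypoxia + PBM and 6.67 ± 0.799 FPKM in hypoxia (SD, n = 5 each). The log2 change was -0.29 ± 0.078 with an adjusted p of 0.0674, and 0 of 10 fits that left out 1 library called it. Together with Syt6 this made 2 of 10 markers whose hypoxia + PBM libraries all lay below the hypoxia libraries, where 2.87% of all tested genes did so.

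Etv1, or Er81, an ETS-family transcription factor of layer 5, had 8.55, 7.64, 9.15, 8.26 and 8.12 FPKM in hypoxia + PBM and 7.28, 7.09, 7.26, 7.84 and 7.07 FPKM in hypoxia. Hypoxia + PBM replicate 2, at 7.64 FPKM, was the 1 library of its group below hypoxia replicate 4. Etv1 had a log2 change of 0.17 ± 0.048 with an adjusted p of 0.0817, which was positive and uncalled in 10 of 10 fits that left out 1 library. The median log2 change of the 3 layer 5 markers was 0.019, with 0 called by limma and 1 lower and 1 higher at an unadjusted p under 0.05.

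The differences between individual libraries within a group were shared by several of the markers. Hypoxia + PBM replicate 3 was the lowest of its group in 6 of the 10 markers, Syt6, Foxp2, Tle4, Ccn2, Nxph4 and Cplx3, and the highest in Fezf2 and Etv1. Hypoxia replicate 5 was the highest of its group in 7, namely those same 6 and Bcl11b, and the lowest in Etv1. These were also the libraries with the lowest and the highest striatal marker mean in their groups. Deviations from the group means were compared with those of the striatal marker mean, by Pearson's r over the 10 libraries. The r was 0.73 for Nxph4, 0.72 for Foxp2, 0.68 for Syt6, 0.64 for Tle4 and 0.50 for Ccn2. It was 0.37 for Bcl11b, 0.31 for Cplx3, -0.077 for Tbr1, -0.74 for Etv1 and -0.80 for Fezf2. These values are a description, and their cause was not tested. Hypoxia + PBM replicate 4 was the highest of its group in Foxp2, Tle4, Tbr1, Ccn2 and Cplx3. With the striatal marker mean as covariate 0 of the 10 deep-layer markers was called, with log2 changes between -0.23 for Syt6 and 0.084 for Cplx3, in the fit that called no gene at all.

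**Figure D3:**
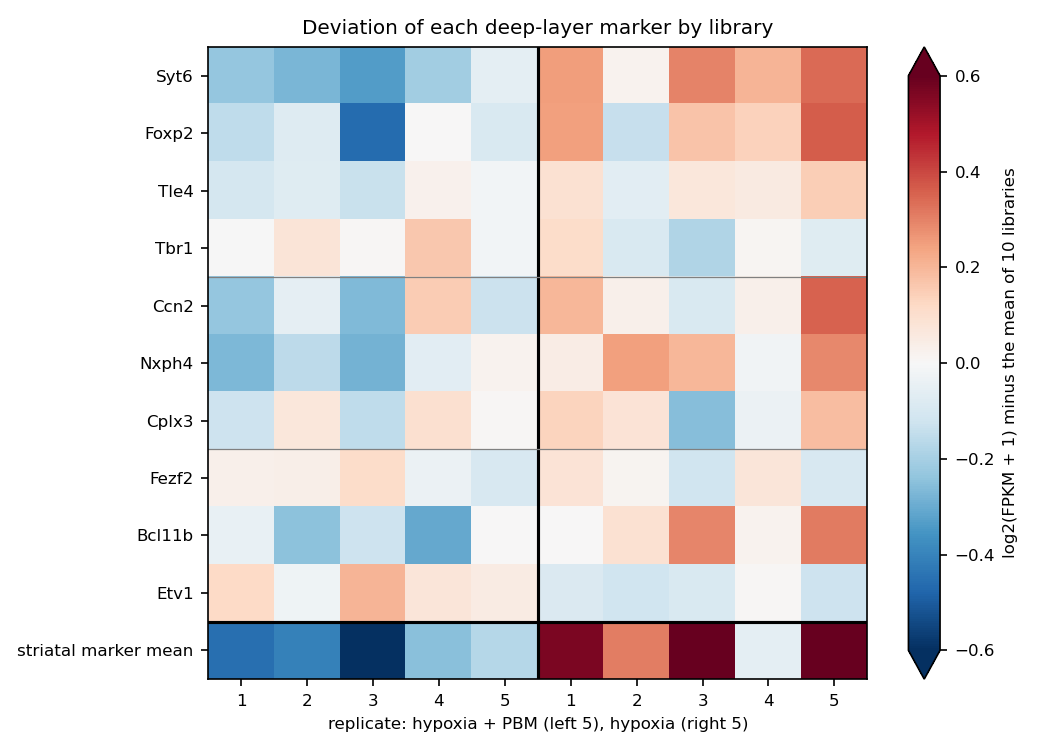
Deviation of log2(FPKM + 1) in each library from the mean of all 10, for each deep-layer marker and for the mean of the 15 striatal markers, with hypoxia + PBM libraries left of hypoxia libraries. Hypoxia + PBM replicate 3 is low and hypoxia replicate 5 high across Syt6, Foxp2, Nxph4 and the striatal mean, whose deviations run past the ends of the colour scale.

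The authors' deposited table, which rests on its own count-based test, gave more calls among these genes. At a q-value under 0.05 the authors' deposited table called 4 of the 10 lower, Syt6, Foxp2, Nxph4 and Bcl11b, and 1 higher, Etv1, where it called 3.39% of the genes with a q-value lower and 3.02% higher. In the authors' deposited table Syt6 had a log2 change of -0.58 and a q-value of 2.10e-08. The q-values there were 0.00271 for Bcl11b, 0.0103 for Etv1, 0.0155 for Foxp2 and 0.0342 for Nxph4. They were between 0.143 and 0.897 for the other 5 genes. The log2(FPKM + 1) scale used here is unlike the authors' and understates the changes of low genes. For Syt6 it gave -0.45, and adding 0.1 in place of 1 gave -0.56. Limma-voom on the reads recovered from the deposited values called Syt6 and Bcl11b lower and Etv1 higher, where it called 2.17% of all tested genes lower and 1.87% higher.

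Further markers of the same neuron classes were tested by the same rule. Of 40 of them, 3 were called lower and 0 higher, 17 had a positive and 23 a negative log2 change, and the median was -0.0085. At an unadjusted p under 0.05, 9 were lower and 3 higher. The 3 were all from the 12 layer 5 extratelencephalic markers, whose median was 0.024. Bcl6, a transcriptional repressor, had a log2 change of -0.25 ± 0.049 with an adjusted p of 0.0199. S100a10, a partner of annexin A2, had one of -0.26 ± 0.061 with an adjusted p of 0.0401.

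Pcp4, a small calmodulin-binding protein, averaged 473 ± 64.8 FPKM in hypoxia + PBM and 626 ± 59.0 FPKM in hypoxia (SD, n = 5 each), a log2 change of -0.41 ± 0.091 with an adjusted p of 0.0311. Striatal neurons are also known to express Pcp4. In the fit with the striatal covariate, where no gene was called, the log2 changes were 0.032 ± 0.085 for Pcp4, -0.35 ± 0.086 for Bcl6 and -0.20 ± 0.11 for S100a10, and the part of striatal RNA in the 3 calls was not tested further. Without 1 library Bcl6 was called in 8 of 10 fits, Pcp4 in 4 and S100a10 in 2.

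No further marker of layers 6 and 6b was called by limma or limma-voom. The 6 other layer 6 corticothalamic markers had a median log2 change of -0.084, with 5 of 6 negative. Sla, an adaptor of receptor signalling, had -0.25 (adjusted p = 0.089), and Hs3st4, a heparan sulphate sulphotransferase, had -0.14 (adjusted p = 0.106). At an unadjusted p under 0.05, 2 of the 6 were lower and 0 higher. The 7 other layer 6b and subplate markers had a median of -0.080, with 2 lower and 0 higher unadjusted, and Nr4a2, an orphan nuclear receptor also used to mark the claustrum, had -0.55 ± 0.20 (adjusted p = 0.145).

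Intratelencephalic and near-projecting neurons, the remaining deep-layer classes, gave medians near 0 and no calls by limma or limma-voom. The 5 layer 6 intratelencephalic markers had a median log2 change of -0.0095, with 0 past an unadjusted p of 0.05. The 10 of layer 5 intratelencephalic and near-projecting neurons had one of -0.0021, with 2 lower and 2 higher unadjusted. Tcerg1l and Batf3, the most extreme of the layer 5 genes in each direction, had 0.21 (adjusted p = 0.0778) and -0.34 (adjusted p = 0.138).

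**Figure D4:**
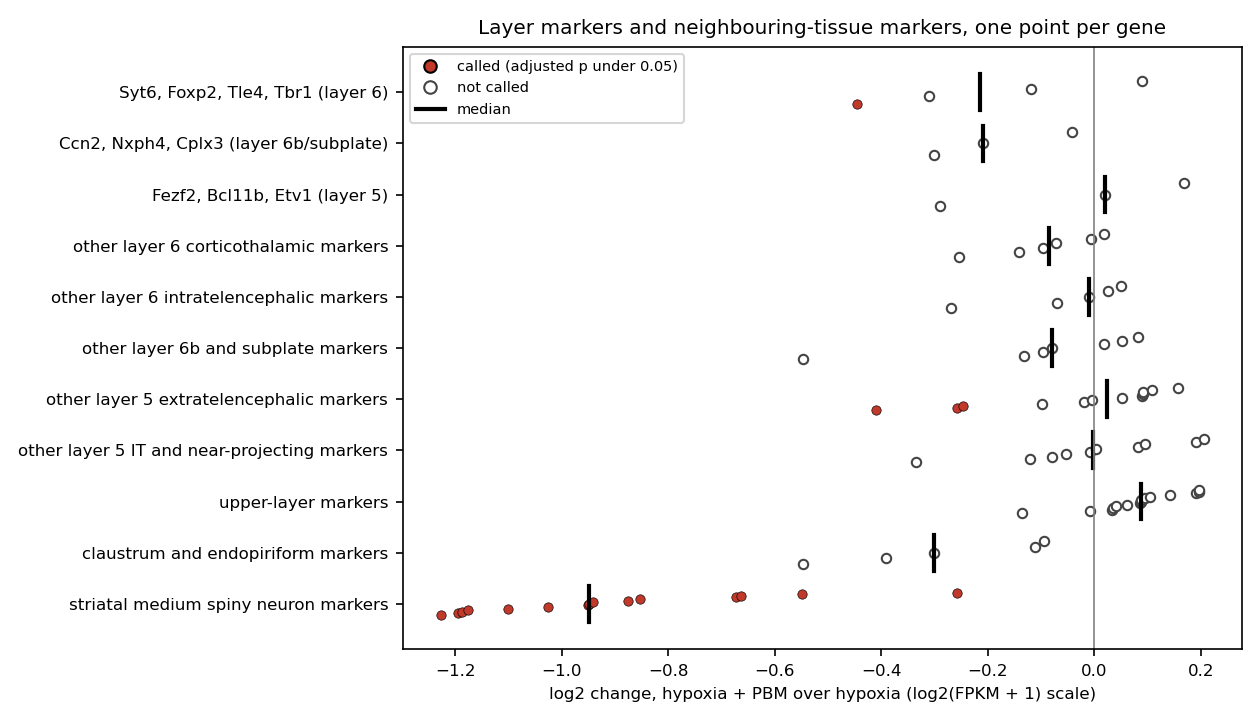
Log2 change on the log2(FPKM + 1) scale, hypoxia + PBM over hypoxia, 1 point per tested gene, filled where called, with a bar at the median. Shown are the deep-layer, upper-layer, claustrum and endopiriform, and striatal marker lists. The deep-layer lists have medians between -0.22 and 0.024, and the striatal list, all filled, has one of -0.95.

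Projection neuron fate factors and partners, a list that leaves out Tbr1, Fezf2 and Bcl11b, gave 0 calls among 10 by limma and limma-voom. At an unadjusted p under 0.05, 1 was lower and 1 higher, and the median log2 change was 0.0042. Ski, a transcriptional co-repressor, had -0.13 with an adjusted p of 0.0575. Among 18 paralogues of the markers, Nxph3 was the 1 called, and their median was -0.027. Upper-layer markers had a median of 0.087, with 13 of 15 positive. None was called by limma, 1 was called higher by limma-voom, and 1 was lower and 2 were higher unadjusted. Rorb, the layer 4 nuclear receptor, had 0.20 with an adjusted p of 0.0916. Claustrum and endopiriform markers were all negative, 5 of 5, with a median of -0.30, 0 called by limma, 1 called lower by limma-voom and 2 lower unadjusted. Their summed level was 47.7 to 78.6 FPKM in hypoxia + PBM and 58.1 to 81.3 FPKM in hypoxia, and its part in the layer 6b values was not tested.

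Genes whose deviations from the group means most resembled those of a marker were found among 11383 candidates. Pearson's r was taken over the 10 libraries, which share a tissue and differ in depth. For Syt6 the closest gene was Sema5b, a semaphorin, with r = 0.945. For Nxph4 it was Hpcal1, with r = 0.952, and for Bcl11b Ptpro, with r = 0.922. Clpx was the closest gene to both layer 6b markers Ccn2 (r = 0.941) and Cplx3 (r = 0.948). Tbr1 was closest to Garnl3, itself one of the further layer 6 corticothalamic markers (r = 0.981), and Etv1 to Ankfy1 (r = 0.954). These values are the highest of many and are given as a description.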

How the data were processed

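Reads were processed with fastp 1.0, HISAT2 and HTSeq on GRCm39, per the submitters' processing notes. The sources used here do not state the strand setting or the other versions. FPKM per library, the values used, were deposited by the authors, as were group means on a size-factor scale (signal), fold ratios, log2 fold changes, p-values and q-values of their own comparison. Hypoxia + PBM was tested against hypoxia (5 libraries each) with limma 3.58.1 (trend, R 4.3.3) on log2(FPKM + 1), for genes at 0.1 FPKM or more in 5 or more libraries, with Benjamini-Hochberg adjustment over 14406 genes and two-sided p. This scale understates the changes of low genes. Whole reads were recovered from the deposited FPKM (100% of values whole within 0.01) and were used for depth, counting error and limma-voom. The 10 markers and the gene lists were chosen with earlier results of these data known. Genes named beyond the 10 markers were drawn by 1 rule: from each list up to 4 called genes by smallest p, or up to 2 with the smallest p where none was called, the paralogues of a called marker, and for each marker the most correlated gene with a mean of 1 FPKM or more. Slc17a7 was added as a check of the tissue. Alternatives were pseudocount, filter, scaling, voom, replicate block, striatal covariate and leaving out each library. The fit was tested on simulated counts with known fold changes. These varied independently from gene to gene, so that test does not cover shared variation such as that of the striatal markers. Promoters were matched by symbol for 7 of the 10 genes and, being on GRCm38.p6, were not joined to coordinates of the files.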

Additional observations from a re-analysis of the deposited data

Results flagged for a closer look

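Of 108 gene and group pairs examined, 3 held a library that stood apart from the other 4, measured as its gap to the nearest library over the range of the group against a critical value of 0.71, and chance gives about 5% of groups. Etv1 in hypoxia had replicate 4 at 7.84 FPKM and the others at 7.07 to 7.28 FPKM (gap over range 0.733). The striatal marker Gpr6 in hypoxia + PBM had replicate 3 at 0.986 FPKM and the others at 2.57 to 3.15 FPKM (0.732). Slc6a13, a meningeal transporter, had hypoxia replicate 2 at 1.08 FPKM and the others at 1.38 to 1.50 FPKM (0.720).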

How the results depend on the processing

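Limma called 411 genes, 166 higher and 245 lower in hypoxia + PBM; rescaling to TPM turned this split to 209 higher and 193 lower, and leaving out 1 library gave 189 to 538 calls. Voom gave 582. Replicate numbers did not pair the libraries (correlations of deviations from -0.19 to 0.36, with replicate 2 the 1 number that matched itself best); the replicate block gave 256 calls. The striatal covariate gave 0 calls (880 at an unadjusted p under 0.05). Leaving out both hypoxia + PBM replicate 3 and hypoxia replicate 5, chosen after seeing the data, gave 65 (2196 unadjusted). Of the 10 deep-layer markers, 2 were called with a filter of 1 FPKM, 3 with voom, 2 with the replicate block, 0 with the striatal covariate (0 unadjusted), 0 without both libraries (5 unadjusted) and 1 to 2 without 1 library. The other deep-layer markers had 1 call with the replicate block, 0 with the striatal covariate (5 unadjusted), 1 without both libraries and 0 to 4 without 1 library. With the covariate, log2 changes reversed for Foxp2 (0.054), Tle4 (0.0074), Ccn2 (0.025), Cplx3 (0.084), Fezf2 (-0.17), Gnb4 (0.0050), Nr4a2 (0.060), C1qb (0.14), Pcp4 (0.032), Oprk1 (0.29) and Syt10 (0.11), and without both libraries for Cplx3 (0.031), Fezf2 (-0.028) and Syt10 (0.022). Without 1 library Fezf2 ranged from -0.0087 to 0.046 and Syt10 from -0.048 to 0.018. The causes were not tested. Depth limits Nxph4 most.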

Other observations

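The astrocyte and oligodendrocyte lineage lists were mixed in direction, with a few genes higher in hypoxia + PBM. Of the 7 microglial markers 6 had negative log2 changes and 1 a positive one, with a median of -0.073. Aldh1l1, the folate enzyme that marks astrocytes, ranged from 28.4 to 30.0 FPKM in hypoxia + PBM and 22.3 to 25.1 FPKM in hypoxia, with a log2 change of 0.27 and an adjusted p of 0.00481 by limma, and was called in 10 of 10 fits without 1 library. With the astrocyte glutamate transporter Slc1a2 (0.21, adjusted p = 0.0239) it made 2 of 7 astrocyte markers called higher and 0 lower, while 4 of the 7 had negative log2 changes, 2 of them at an unadjusted p under 0.05, and the median was -0.037. Cspg4, the NG2 proteoglycan of oligodendrocyte precursors, was the 1 of 8 oligodendrocyte lineage markers called (0.34, adjusted p = 0.0225), while 6 of the 8 had negative log2 changes, 1 of them at an unadjusted p under 0.05, and the median was -0.074. Limma called none of 7 microglial markers (2 lower at an unadjusted p under 0.05, 0 by limma-voom), of 10 interneuron markers (1 lower and 3 higher unadjusted, 1 by limma-voom), of 7 pan-excitatory markers (2 higher unadjusted, 1 by limma-voom) or of 6 meningeal markers (3 higher unadjusted, 0 by limma-voom). Of 7 thalamic and septal markers, 6 of them positive, Ramp3 was called higher (0.25, adjusted p = 0.0406). Of 4 olfactory markers, 2 positive and 2 negative with a median log2 change of -0.038, Pcp4l1 was called lower (-0.51, adjusted p = 0.0111). Of those calls Cspg4 held in 9, Slc1a2 in 5, Ramp3 in 2 and Pcp4l1 in 10 of 10 fits without 1 library.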
